A study of Mus musculus with 180 samples.

Results

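Brown and white adipose tissue of the same 4 mice were compared across all measured genes. The 8 libraries are the brown and the white fat of PBS mice 1 to 4, out of 180 libraries from 15 tissues of 12 mice in the whole series. These mice were C57BL/6J females, 6 weeks of age, given PBS and sampled at 12 hours, after perfusion through the heart with PBS and EDTA. Pairs of fat from wild-type mice given 5 mg/kg LPS (mice 5 to 8) and from TNF-deficient mice (strain B6.129S-Tnftm1Gkl/J) given the same dose (mice 9 to 12), also sampled at 12 hours, were used only to see whether a difference recurred in other animals. The labels do not name the depot from which either fat was taken.

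White adipocytes hold a single large droplet of triglyceride and release fatty acids and hormones such as leptin. Brown adipocytes hold many small droplets and dense mitochondria, and burn fuel to make heat. The heat comes from uncoupling protein 1, which lets protons flow back across the inner mitochondrial membrane without making ATP, and noradrenaline from sympathetic nerves switches it on. Both tissues also contain vessels, nerves, fibroblast-like progenitors and immune cells, and in bulk RNA fewer cells of a type cannot be told apart from less RNA per cell.

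Expression was read as tags from the 3′ ends of polyadenylated RNA. The values are a signal, meaning counts divided by a library size set by the authors. Total counts were 311128 to 1102906 in brown fat and 537156 to 1230206 in white fat. Brown fat of mouse 1 was the shallowest of all 180 libraries, and 1 count there stood for a signal of 3.6, against 0.705 to 1.64 elsewhere among these libraries. Signals of a few units in that library therefore rested on 1 or 2 counts. Transcripts of the mitochondrial genome took 19.1% to 21.1% of the signal in brown fat and 7.46% to 9.12% in white fat.

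The labels held against defining genes. Ucp1 was higher in each brown library, whereas leptin and resistin were higher in each white library, as given below. Fabp4, the fatty acid carrier of adipocytes, had a mean signal of 21231 ± 3333 in brown and 12713 ± 2293 in white fat (SD, n = 4), against at most 1342 as the mean of any of the other 13 tissues. Adipoq, which encodes adiponectin, was at 973 ± 147 and 1279 ± 241, against at most 80.2 elsewhere.

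Brown and white fat differed at 25.3% of the tested genes, in near-equal numbers in each direction. Of 13217 genes tested, 1663 (12.6%) were higher in brown fat and 1675 (12.7%) higher in white fat at an adjusted p below 0.05, from a limma fit with the mouse as a block. At an unadjusted p below 0.05 there were 4719 (35.7%). Differences are log2 brown minus white on the log2(signal + 1) scale with the standard error (SE), which understates changes of low genes. Over 4-fold and called were 255 genes (1.93%) in brown and 346 (2.62%) in white. The median of all tested genes was -0.12. With each library scaled to a common total instead, that median was -0.61 and the split became 892 against 5276. Calls that this scaling ended are given with their genes. Without mouse 3 the counts were 1236 and 1101, and without mouse 1, whose brown library was shallow, the counts were 2050 and 1898.

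Ucp1 had the largest difference toward brown fat among all tested genes. Ucp1 (chromosome 8, 83290352 to 83298452 in mm10) had signals of 7158, 10362, 12298 and 11592 in brown fat of mice 1 to 4. In white fat of the same mice it had 44.3, 76.2, 119 and 38.5. Every brown library was above every white one by far more than either group's spread (log2 difference 7.31 ± 0.19, adjusted p = 2.2e-13, higher in 4 of 4 mice). The white libraries lay near the other 13 tissues, whose means ran from 21.7 to 79.6, the highest in kidney. The log2 difference corresponds to 159-fold on the signal + 1 scale. Whether the white fat signal is above what this assay gives without brown adipocytes was not tested.

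The other uncoupling proteins went in opposite directions. Ucp3, which is known mainly from muscle, had signals of 64.9, 108, 121 and 111 in brown fat and 13.1, 16.2, 15.98 and 12.8 in white fat (log2 difference 2.69 ± 0.21, adjusted p = 3.9e-08). Ucp2, a homologue expressed widely in immune cells, had 43.2, 72.8, 60.1 and 51.9 in brown fat and 138, 158, 195 and 216 in white fat. It was higher in white fat in 4 of 4 mice with no overlap (log2 difference -1.62 ± 0.17, adjusted p = 1.1e-06). Its highest means among the other tissues were in bone marrow (432) and spleen (379), and the macrophage markers described below were higher in white fat too. Their part in the Ucp2 difference was not tested.

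Of 21 measured genes on the list of brown adipocyte identity, 18 were higher in brown fat and none in white, with a median of 2.69. Cidea, which encodes a lipid droplet protein, had 998, 1477, 1698 and 1467 in brown and 32.8, 50.8, 38.8 and 11.7 in white fat (log2 difference 5.50 ± 0.24, adjusted p = 6.4e-11). Elovl3, which elongates very long chain fatty acids, had 54.1, 84.5, 145 and 122 in brown and 1.64, 2.82, 2.28 and 0 in white fat, and Dio2, which activates thyroid hormone, 39.6, 124, 107 and 64.5 in brown and 6.56, 8.46, 3.42 and 0 in white fat. White mouse 4 was at 0 for both. No library overlapped for any of these genes (5.32 and 4.198, adjusted p = 2.8e-08 and 1.1e-06). The proton channel gene Otop1 (4.89), the muscle-type carnitine palmitoyltransferase Cpt1b (4.81), the acyl-CoA thioesterase Acot11 (4.41) and the kininogen gene Kng2 (2.10) were also higher.

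Genes used as markers of brown precursors or as receptors differed less. Adrb3, the beta-3 adrenergic receptor, had 213, 150.2, 215 and 238 in brown fat and 107, 123, 102 and 93.3 in white fat (log2 difference 0.92 ± 0.17, adjusted p = 0.00044). At a common total that call was lost (0.37, adjusted p = 0.061), as it was in a fit of all 60 PBS libraries (adjusted p = 0.079). The transcription factor Zic1 had signals of at most 15.4 and overlapped between tissues (1.62, adjusted p = 0.022). Its call was lost at a common total (1.21), without the replicate block (adjusted p = 0.062), with DESeq2 and without mouse 2, 3 or 4. The 3 members with no call were the transcription factor Ebf2 (0.74, adjusted p = 0.077), the mitochondrial creatine kinase Ckmt2 (0.49) and Epsti1 (-0.35). Ebf2 and Ckmt2 passed without mouse 1 (adjusted p = 0.0056 and 0.0021) and with edgeR (0.0047 and 0.0049), and Ckmt2 was at -0.04 at a common total.

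**Figure D1:**
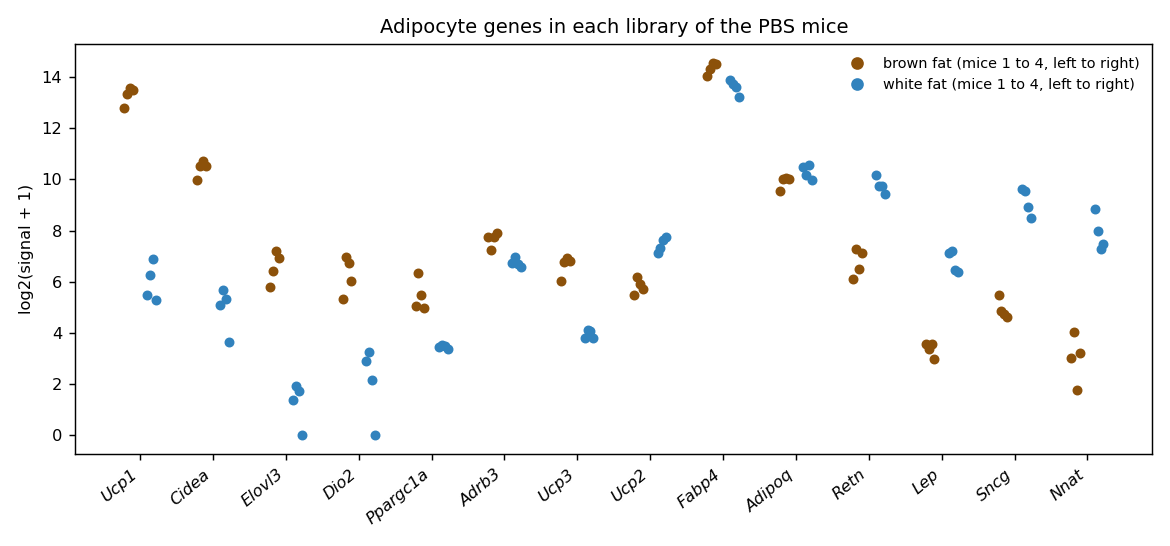
Signal of 14 adipocyte genes on a log2(signal + 1) axis, with 1 point for each of the 4 brown and 4 white libraries. Ucp1, Cidea, Elovl3, Dio2 and Ucp3 are higher in brown fat without overlap, Ucp2, Retn, Lep, Sncg and Nnat higher in white fat without overlap, and Adipoq overlaps.

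Other genes among the 15 largest differences toward brown fat, of those called, well measured and without overlap, were the following. Pank1, which starts coenzyme A synthesis, had signals of 112 to 186 in brown and 1.14 to 14.8 in white fat (4.57). Gmpr, a guanosine monophosphate reductase, differed by 4.31, the asparaginase gene Aspg by 4.22, Coq8a, needed for coenzyme Q synthesis, by 3.92, and the glycogen-targeting phosphatase subunit Ppp1r3b by 3.84. Gpd1, which makes glycerol 3-phosphate, had 3838, 4409.7, 3269 and 3064 in brown and 446, 289, 212 and 162 in white fat (log2 difference 3.80 ± 0.16, adjusted p = 6.4e-11). Over the 60 PBS libraries of 15 tissues the genes most like Ucp1 were Otop1 (Pearson r = 0.91 of log2 values), Letmd1 (0.888) and Cidea (0.884). These points share mice and are given as a description.

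The respiratory chain and ATP synthase pass electrons from fuel to oxygen and use the proton gradient to make ATP. Of 81 nuclear-encoded subunits tested, 77 were higher in brown fat and 1 in white, with a median of 2.08. All 37 subunits of complex I (median 2), 4 of complex II (2.37) and 9 of complex III (2.35) were higher in brown fat, as were 14 of 15 of complex IV (2.18). The complex I subunit Ndufv1 had 692, 849, 913 and 895 in brown and 143, 129, 102 and 108 in white fat (log2 difference 2.79 ± 0.15, adjusted p = 5.4e-10). The Rieske iron-sulphur protein Uqcrfs1 of complex III had 1247, 1329, 1461 and 1444 in brown and 192, 242, 218 and 184 in white fat (log2 difference 2.71 ± 0.13, adjusted p = 1.7e-10). The groups were several times farther apart than their spread for each.

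Isoforms of complex IV subunits departed from the rest. Cox7a1, an isoform typical of heart and muscle, had 1164, 1433, 1575 and 1581 in brown and 72.1, 67.7, 54.8 and 50.2 in white fat (log2 difference 4.54 ± 0.15, adjusted p = 1.3e-11), and Cox8b, likewise, differed by 4.15. Cox5a differed by 3.01. Cox6a2, the muscle form of subunit 6a, differed by only 0.54 (adjusted p = 0.044), and the call was lost with DESeq2 and without mouse 2, 3 or 4, and the difference was -0.01 at a common total. Cox4i2 was at signals of 6.13 or less in each library and was not called.

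ATP synthase was less uniform, with 13 of 16 subunits higher in brown fat (median 1.69). The catalytic subunit Atp5b had 2072, 2548, 2711 and 2564 in brown and 551, 523, 501 and 402 in white fat (log2 difference 2.32 ± 0.14, adjusted p = 2.5e-09). Atp5g1, 1 of the 3 genes for the membrane ring subunit c, went the other way, with 93.7, 106, 90.7 and 153 in brown and 174, 174, 155 and 184 in white fat. No library overlapped (log2 difference -0.66 ± 0.15, adjusted p = 0.0028). The second of these genes, Atp5g2, was higher in brown fat by 0.76, and Atp5g3 was not called (-0.02, adjusted p = 0.94), but was higher in white fat at a common total (-0.57, adjusted p = 0.00074). The 3 genes encode the same mature peptide from different transcripts, and the sources used here do not say how reads shared between near-identical genes were counted.

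All 13 protein-coding genes of the mitochondrial genome were higher in brown fat, with a median of 1.93. The oxidase subunit mt-Co1 had 11133, 15109, 14504 and 14789 in brown fat and 662, 4545, 4296 and 3161 in white fat (log2 difference 2.45 ± 0.29, adjusted p = 6.2e-06). White mouse 1 was far below the other white libraries for this gene. The mitochondrial ribosome, which translates these transcripts, had 64 of 77 proteins higher in brown fat and none in white (median 1.05). Proteins of the cytosolic ribosome leaned the other way, with 52 of 84 higher in white fat and 2 in brown (median -0.50).

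The promoters of the respiratory subunits were searched for the binding motif of NRF1, a factor known to act on nuclear genes for mitochondria. The windows were the 250 bases before each RefSeq start (GRCm38.p6), and 9910 of the 13217 tested genes had 1. The letters searched were GCGC, any base and TGCGC in a row, on either strand. They were in 8.29% of all these promoters and in 13 of 63 respiratory chain and ATP synthase genes (20.6%). They were in 11.4% of the promoters of genes higher in brown fat and 5.06% of those higher in white fat. A match is a description of the letters and not a measured site. Searched the same way, the letters TNAAGGTCA for estrogen-related receptors were in 2 of 63 (3.17%, against 0.959% of all), the cyclic AMP element TGACGTCA in 4 (6.35%, against 2.69%), and the PPAR repeat, AGGTCA copied with 1 base between the copies, in 0 (against 0.0505%).

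The sequences below show the match with 10 bases on each side, to show what the shared letters look like in place. They are from 5 subunits with bases after the RefSeq start found near the beginning of an annotated transcript. The search windows of all 5 overlap an annotated exon. Each is written 5′ to 3′ in the direction of its gene, with the NRF1 match in capitals. All 5 genes were higher in brown fat and lie on the minus strand.
Cox6a1 (complex IV, chr5:115349101-115349130): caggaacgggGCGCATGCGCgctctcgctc
Sdha (complex II, chr13:74350319-74350348): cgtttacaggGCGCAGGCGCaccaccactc
Ndufa8 (complex I, chr2:36049349-36049378): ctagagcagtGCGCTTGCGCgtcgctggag
Atp5k (ATP synthase, chr5:108434430-108434459): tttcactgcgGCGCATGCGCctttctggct
Ndufs5 (complex I, chr4:123718265-123718294): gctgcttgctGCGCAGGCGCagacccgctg
The matches open 162, 98, 30, 50 and 98 bases before the start in this order. The log2 differences of the 5 genes were 2.73, 2.34, 2.18, 2.04 and 1.98. Sdha, the catalytic subunit of succinate dehydrogenase, had 3 matches in its window and signals of 1337, 1688, 1797 and 1776 in brown and 387, 348, 301 and 265 in white fat.

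The tricarboxylic acid cycle, which feeds the chain, was higher in brown fat in 16 of 17 genes (median 2.61). The succinyl-CoA ligase subunit Sucla2 had 962, 1124, 1131 and 1068 in brown and 85.2, 119, 99.3 and 78.1 in white fat (log2 difference 3.49 ± 0.13, adjusted p = 2.3e-11). Its partner subunit Suclg1 differed by 3.06 and citrate synthase, Cs, by 2.33. The exception was pyruvate carboxylase, Pcx, which refills the cycle and also serves lipid synthesis. It had 227, 316, 233 and 281 in brown and 311, 256, 199.7 and 159 in white fat, which overlapped (log2 difference 0.22 ± 0.17, adjusted p = 0.38). Without mouse 1 it was higher in brown fat (0.45, adjusted p = 0.0098).

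Uptake and oxidation of fatty acids gave the same picture, with 23 of 25 genes higher in brown fat and 2 in white (median 2.40). The thiolase Acaa2 had 1229, 1453, 1377 and 1209 in brown and 118, 119, 92.5 and 81.6 in white fat (log2 difference 3.68 ± 0.13, adjusted p = 2.0e-11). Very long chain acyl-CoA dehydrogenase, Acadvl, differed by 3.27, the trifunctional protein subunit Hadhb by 3.15 and the carnitine carrier Slc25a20 by 3.03. The 2 genes higher in white fat were the fatty acid transporter Slc27a1 (-0.95, adjusted p = 3.0e-05) and Cpt1a, the liver-type palmitoyltransferase. Cpt1a had 43.2, 30.5, 29.4 and 29.5 in brown and 44.3, 54.3, 50.2 and 62.99 in white fat (log2 difference -0.67 ± 0.21, adjusted p = 0.028), opposite to its isoform Cpt1b. The Cpt1a call was lost without mouse 2, 3 or 4 and with DESeq2 (adjusted p = 0.11).

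**Figure D2:**
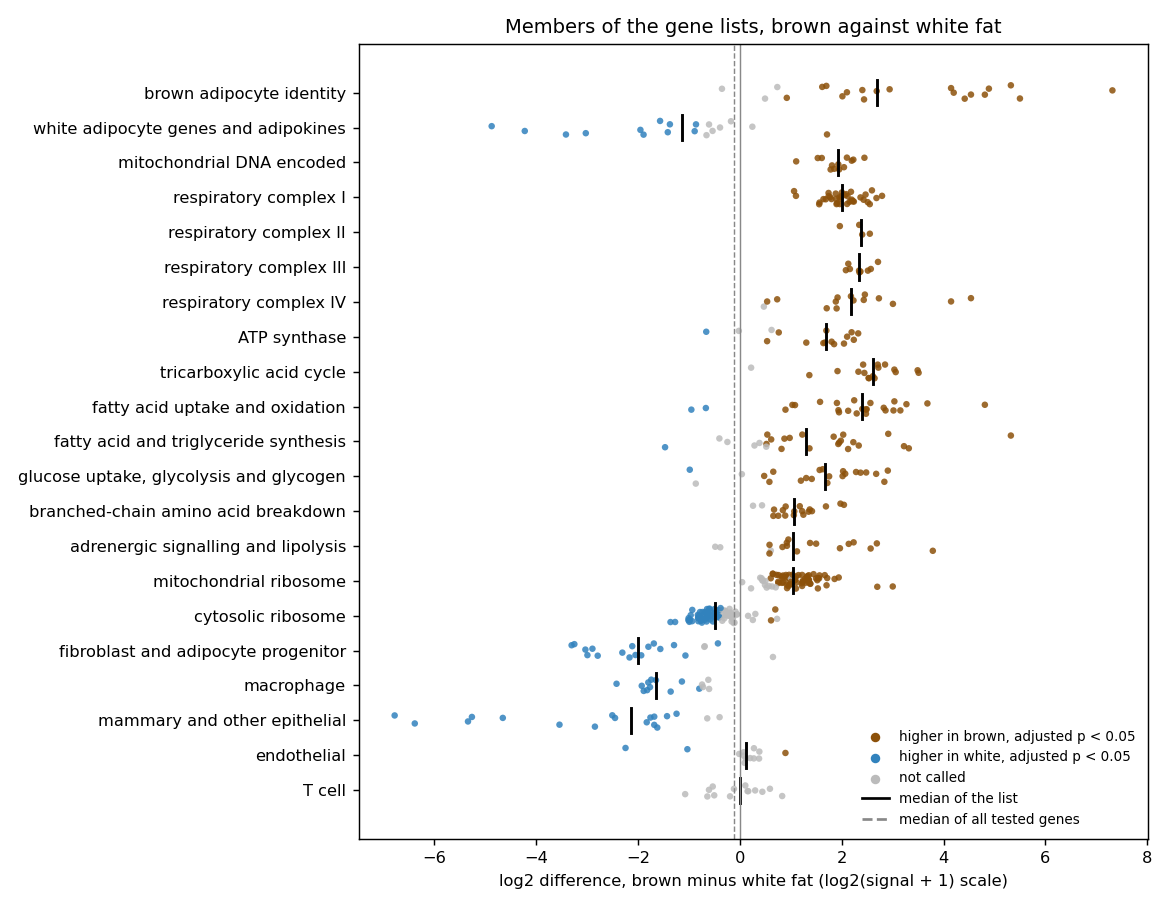
Log2 difference of each tested member (points) of 21 gene lists, coloured by the call, with the list median (bar) and the median of all tested genes (dashed line). Mitochondrial and fuel lists lie to the right, and fibroblast, macrophage and epithelial lists to the left.

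Genes that make fatty acids and triglyceride were also mostly higher in brown fat, 20 of 26 against 1 in white (median 1.30). Fatty acid synthase, Fasn, had 6062, 6352, 3799 and 5148 in brown and 1403, 1314, 407 and 309 in white fat (log2 difference 2.91 ± 0.24, adjusted p = 6.4e-08). The acetyl-CoA carboxylase Acacb had 721, 798, 686 and 745 in brown and 88.5, 96.6, 74.2 and 58.3 in white fat (log2 difference 3.22 ± 0.14, adjusted p = 6.4e-11), and the elongase Elovl6 differed by 3.32. The desaturase Fads1 was the member higher in white fat, with 25.2, 25.8, 44.1 and 25.3 in brown and 70.5, 95.9, 105 and 65.3 in white fat (log2 difference -1.47 ± 0.19, adjusted p = 1.4e-05). The regulator Srebf1 had 64.9, 148, 114 and 125 in brown and 170.5, 123, 127 and 101 in white fat, which overlapped (adjusted p = 0.47). At a common total Srebf1 was higher in white fat (-0.79, adjusted p = 0.0022).

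White fat of mice 1 and 2 was above that of mice 3 and 4 for this list. Both were above both in 19 of 26 genes in white fat and in 14 of 26 in brown fat, against 18.3% and 12.2% of all tested genes. The same held in white fat for 14 of 17 genes of the tricarboxylic acid cycle and 16 of 22 of glucose use. It also held for 50 of 81 respiratory chain and ATP synthase genes and 9 of 18 white adipocyte genes. Fatty acid uptake and oxidation had 7 of 25 such genes, and brown adipocyte identity 6 of 21. In brown fat, the shallow library of mouse 1 was above the mean of the 4 libraries in 0 of the 17 tricarboxylic acid cycle genes. ATP citrate lyase, Acly, had 256, 344, 71.9 and 67.7 in white fat and 1279, 945, 208 and 425 in brown fat. The tissues thus overlapped across mice, although brown was higher in 4 of 4 mice (log2 difference 1.98 ± 0.18, adjusted p = 2.0e-07). The desaturase Scd1 had 7853, 6862, 5239 and 5498 in brown and 5989, 5450.02, 2811 and 1747 in white fat (log2 difference 0.82 ± 0.21, adjusted p = 0.0068), and lost its call at a common total (0.26, adjusted p = 0.22) and without mouse 3 (adjusted p = 0.095). The labels give no feature that separates mice 1 and 2 from 3 and 4.

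**Figure D3:**
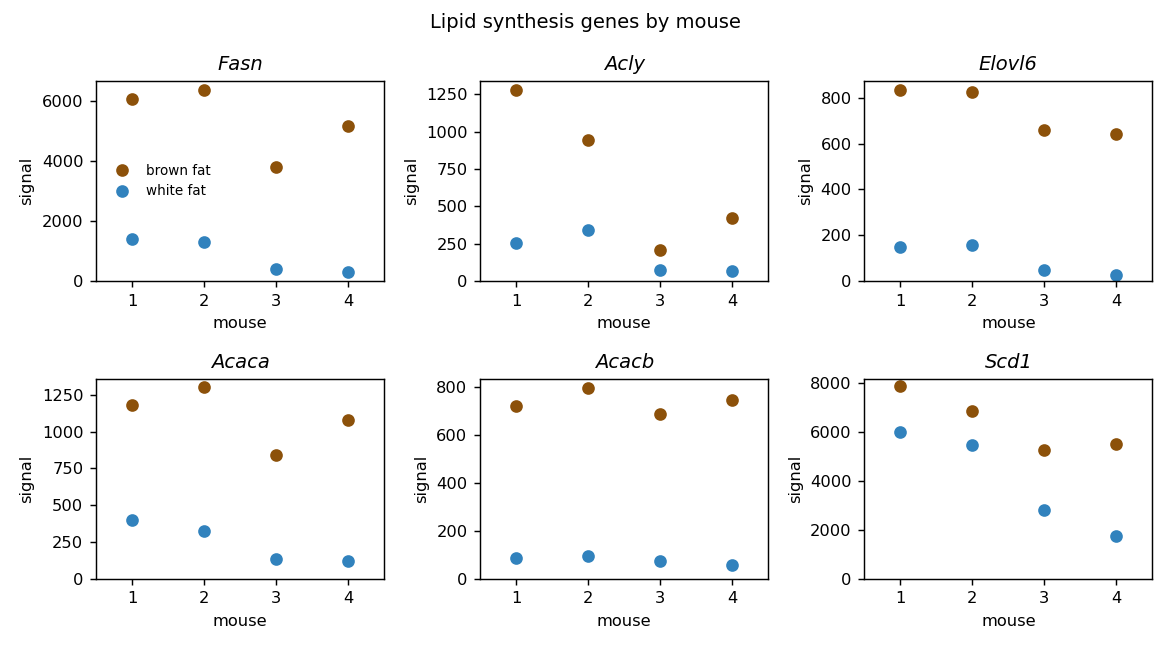
Signal of 6 lipid synthesis genes by mouse in brown and white fat, on linear axes from 0. White fat of mice 1 and 2 is above that of mice 3 and 4 in each panel, and brown is above white in each mouse.

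Of 22 genes of glucose use, 19 were higher in brown fat and 1 in white (median 1.67). Lactate dehydrogenase B, Ldhb, had 933, 1070.4, 1126 and 1194 in brown and 134, 169, 159 and 115 in white fat (log2 difference 2.90 ± 0.14, adjusted p = 1.7e-10). Liver phosphofructokinase, Pfkl, differed by 2.84, enolase, Eno1, by 2.48, and the glycogen enzymes Gys2 and Gbe1 by 2.68 and 2.37. The glucose transporters parted. Insulin-regulated Slc2a4 was higher in brown fat (1.57, adjusted p = 1.4e-06), and Slc2a1 higher in white fat, with 10.8, 16.4, 8.58 and 12.6 in brown and 37.7, 25.4, 19.4 and 18.7 in white fat (log2 difference -0.98 ± 0.31, adjusted p = 0.026). The Slc2a1 call was lost with DESeq2 and without mouse 1, 2 or 3. Breakdown of branched-chain amino acids was higher in brown fat in 17 of 19 genes (median 1.07), led by Pcca (2.04) and Bckdha (1.98), while the aminotransferase Bcat2 was not called (0.26, adjusted p = 0.3).

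Of 18 genes that signal or carry out the release of fat from the droplet, 15 were higher in brown fat and none in white (median 1.04). Perilipin 5, Plin5, which ties droplets to mitochondria, had 82.9, 112, 149.5 and 108 in brown and 8.197, 12.7, 9.13 and 2.33 in white fat (log2 difference 3.79 ± 0.29, adjusted p = 3.9e-08). The adenylyl cyclase Adcy3 (2.69), the G protein gene Gnas (2.14) and the alpha-1 receptor Adra1a (2.23) were higher too. Adipose triglyceride lipase, Pnpla2, differed by 1.38, and so did its inhibitor G0s2, by 2.57. Hormone-sensitive lipase, Lipe, had 634, 836, 921 and 913 in brown and 682, 572, 566 and 400.1 in white fat, which overlapped (log2 difference 0.58 ± 0.17, adjusted p = 0.016). At a common total the Lipe difference was 0.03, and the call was also lost without mouse 2, 3 or 4.

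Other heat-making cycles were mixed, with 3 of 13 genes higher in brown fat and none in white (median 0.24, which became -0.27 at a common total). These shares were 23.1% and 0%, against 12.6% and 12.7% of all tested genes. Glycerol kinase, Gk, had 115, 188, 291 and 229 in brown and 18.03, 16.2, 10.3 and 27.99 in white fat (log2 difference 3.44 ± 0.26, adjusted p = 2.5e-08). The calcium pump Atp2a2 differed by 0.51, which was -0.04 at a common total and lost its call without mouse 3 or 4, and creatine kinase B, Ckb, was not called (-0.14, adjusted p = 0.68) but was higher in white fat at a common total (-0.68, adjusted p = 0.011). Pm20d1, which makes N-acyl amino acids, had signals of 7.21 to 15.9 in brown and 0.705 to 4.67 in white fat (1.82), a call lost without mouse 2 or 3.

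Of 20 regulators of the brown programme, 10 were higher in brown fat and 3 in white (median 0.94). These shares were 50% and 15%, against 12.6% and 12.7% of all tested genes. The coactivator Ppargc1b had 54.1, 82.2, 84.6 and 68.7 in brown and 4.92, 3.53, 5.71 and 3.499 in white fat (log2 difference 3.76 ± 0.29, adjusted p = 3.1e-08). Its relative Ppargc1a had 32.4, 79.8, 44.1 and 30.9 in brown and 9.84, 10.6, 10.3 and 9.33 in white fat (log2 difference 2.01 ± 0.28, adjusted p = 3.8e-05), with brown mouse 2 well above the others. The nuclear receptors Ppara (3.42), Esrra (2.32) and Pparg (1.17) and the factor Cebpb (2.06) were higher in brown fat. The corepressors Nrip1 (-0.89) and Tle3 (-0.77) and the methyltransferase Ehmt1 (-0.76) were higher in white fat, and the Tle3 and Ehmt1 calls were lost with DESeq2 and without mouse 3 or 4, that of Tle3 also without mouse 1.

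Of 18 genes known from white adipocytes and as adipokines, 11 were higher in white fat and 1 in brown (median -1.13). Leptin, Lep (chromosome 6, 29060220 to 29073877), the satiety hormone, had 139, 147, 87.9 and 81.6 in white fat and 10.8, 9.39, 11.03 and 7.01 in brown fat (log2 difference -3.41 ± 0.22, adjusted p = 5.6e-09). Resistin, Retn, had 1151, 863, 865 and 687 in white and 68.5, 155, 89.5 and 137 in brown fat (log2 difference -3.02 ± 0.21, adjusted p = 1.2e-08). No library overlapped for either, and both were at their highest in white fat among the 15 tissues. Over the 60 PBS libraries the genes most like Lep were Retn (Pearson r = 0.813), Sncg (0.806) and Col5a3 (0.798).

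Larger still were Nnat, an imprinted gene for a membrane proteolipid, and Sncg, gamma-synuclein. Nnat had 457, 253, 154 and 175 in white and 7.21, 15.3, 2.45 and 8.42 in brown fat (log2 difference -4.87 ± 0.27, adjusted p = 8.5e-10). Sncg had 797, 751, 484 and 356 in white and 43.2, 28.2, 25.7 and 23.8 in brown fat (log2 difference -4.22 ± 0.16, adjusted p = 2.2e-11). Complement factor D, Cfd, differed by -1.37, retinol-binding protein, Rbp4, by -0.86, and the serine synthesis enzyme Psat1 by -1.95. Adiponectin, Adipoq, had 1449, 1152, 1510.04 and 1004 in white and 753, 1038, 1069 and 1031 in brown fat and overlapped (log2 difference -0.39 ± 0.16, adjusted p = 0.083). It was called higher in white fat at a common total (-0.94, adjusted p = 1.2e-05), with edgeR (0.035) and without mouse 4 (0.033). Nampt, which makes NAD precursors, was the member higher in brown fat (1.71, adjusted p = 5.4e-08).

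Genes of adipocytes in general were split. Of 18, 10 were higher in brown fat and 2 in white (median 0.64), but at a common total the counts were 7 and 7 and the median 0.08. Perilipin 1, Plin1, was higher in brown fat (0.95) and perilipin 4, Plin4, in white fat (-1.11). Fabp4 was higher in brown fat by 0.74 (adjusted p = 0.028), a call lost at a common total, with a pseudocount of 0.25, with no filter and without mouse 2, 3 or 4. The carbonic anhydrase Car3 was higher in white fat by the test (-0.77, adjusted p = 0.044), but the libraries overlapped and mouse 4 went the other way. Its call was lost with a pseudocount of 0.25, with no filter, with all 60 PBS libraries and without mouse 1, 2 or 3. Of 7 genes described for beige cells, 3 were higher in white fat and none in brown. These were Slc27a1, Klhl13 (-2.07) and Cited1, which had 88.5, 68.4, 161 and 265 in white and 3.604, 1.17, 2.45 and 4.21 in brown fat (log2 difference -5.13 ± 0.29, adjusted p = 1.1e-09). Cited1 is also known from mammary epithelium, whose markers were higher in white fat as given below, and their part in it was not tested.

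Position along the body is recorded by homeobox genes, and a few of these differed strongly. Hoxa5 (chromosome 6, 52201754 to 52204587), an anterior member of its cluster, had 43.2, 42.3, 60.1 and 49.1 in brown and 0, 7.05, 7.99 and 6.998 in white fat (log2 difference 3.33 ± 0.43, adjusted p = 1.8e-05). Toward the posterior end of the clusters, Hoxa10 had 19.7, 11.99, 10.3 and 11.7 in white and 3.604, 2.35, 3.68 and 0 in brown fat (-2.26), and Hoxc9 differed by -2.32. Hoxc10 had 19.7, 21.2, 22.8 and 17.5 in white fat and 1 count in all 4 brown libraries together, a ratio of 54.4 (95% exact interval 9.48 to 2180, counting error only). The other 10 of 14 tested Hox genes were not called. Hox genes higher in brown fat were thus 7.14% and those higher in white fat 21.4%, against 12.6% and 12.7% of all tested genes.

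Of 15 positional transcription factors outside the Hox clusters, 5 were higher in white fat, 2 in brown fat and 8 were not called. The share higher in white fat was 33.3%, against 12.7% of all tested genes. The share higher in brown fat, 13.3%, was near the 12.6% of all tested genes. The Iroquois genes Irx1, Irx2, Irx3 and Irx5 lie in pairs on chromosomes 13 and 8, and all 4 were higher in white fat. Irx2 had 32.8, 39.5, 41.1 and 55.99 in white and 7.21, 3.52, 6.13 and 4.21 in brown fat (log2 difference -2.80 ± 0.33, adjusted p = 5.4e-06). Irx1 differed by -2.86, Irx3 by -2.40 and Irx5 by -2.07. The Irx5 libraries overlapped, and its call was lost without mouse 3 (adjusted p = 0.065) or mouse 4 (0.059). Tbx5 was higher in brown fat, on 15 counts against 1 (ratio 21.2, interval 3.27 to 893), a call lost without mouse 2 (adjusted p = 0.055). Tbx15 had 9.84, 16.2, 7.99 and 5.83 in white and 0, 4.69, 2.45 and 7.01 in brown fat and just missed the threshold (-1.55, adjusted p = 0.0504), passing it under 5 alternatives, with edgeR among them (0.034).

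Among secreted factors described in brown fat, 6 of 16 were higher in brown and 6 in white fat. Each share was 37.5%, against 12.6% and 12.7% of all tested genes. Angptl8, a regulator of lipoprotein lipase, differed by 1.85 toward brown fat. Igf1, a growth factor, had 205, 226, 166 and 143 in white and 18.02, 68.1, 23.3 and 43.5 in brown fat (log2 difference -2.41 ± 0.24, adjusted p = 7.4e-07). The chemokine Cxcl14 differed by -2.09, and Slit2, a guidance factor, had 49 counts in white and 2 in brown fat (ratio 17.3, interval 4.54 to 147).

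Of 20 fibroblast and adipocyte progenitor genes, 17 were higher in white fat and none in brown (median -1.99). Their summed signal was 13546 to 15033 in white fat and 2566 to 2984 in brown fat, and skin was the tissue with the highest sum, at a median of 17064. The collagen gene Col3a1 had 2071, 2684, 2589 and 2495 in white and 209, 246, 259 and 281 in brown fat (log2 difference -3.30 ± 0.13, adjusted p = 2.3e-11). Col1a1 (-3.25), dermatopontin, Dpt (-3.03), and the fibroblast protease Fap (-2.89) followed.

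Macrophage genes were higher in white fat in 11 of 15 and in brown fat in none (median -1.65). Their summed signal was 1556 to 1941 in white and 584 to 738 in brown fat. Retnla, a marker of alternatively activated macrophages, had 389, 317, 520.5 and 448 in white and 57.7, 63.4, 119 and 77.2 in brown fat (log2 difference -2.42 ± 0.14, adjusted p = 1.4e-09). The complement gene C1qa differed by -1.93 and the scavenger receptor Cd163 by -1.76. Of 7 neutrophil and mast cell genes tested, 3 were higher in white fat and 4 were not called. The 3 were the mast cell genes Cma1 (-2.63), Kit (-2.60) and Cpa3 (-1.65). The Cpa3 call was lost in DESeq2 and without mouse 2 or 4. The mast cell markers Mcpt4, Tpsb2 and Ms4a2 were not among the measured genes. The summed signal of this list overlapped, at 387 to 467 in brown and 341 to 476 in white fat. It still overlapped at a common total, with medians of 345 in brown and 466 in white fat. None of 14 T cell genes and none of 16 B cell genes was called by limma, edgeR or DESeq2, and 0 of either passed an unadjusted p of 0.05. The summed signals overlapped, at 94 to 151 in brown and 105 to 143 in white fat for T cells. At a common total these sums still overlapped, but their medians were 91.6 in brown and 150 in white fat for T cells. For B cells the medians were then 266 and 338.

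Vessel genes did not differ in 1 direction. Of 13 endothelial genes, 1 was higher in brown fat (7.69%) and 2 in white (15.4%). These shares were near those of all tested genes, 12.6% and 12.7%. The endothelial median of 0.11 became -0.42 at a common total. The VEGF receptor Flt1 was higher in brown fat (0.90, lost at a common total) and von Willebrand factor, Vwf, in white fat (-2.24). Of 12 smooth muscle and pericyte genes, 5 were higher in white fat, 3 in brown fat and 4 were not called. Smooth muscle actin, Acta2, had 667, 602, 664 and 643 in white and 105, 93.9, 118 and 115 in brown fat (log2 difference -2.57 ± 0.13, adjusted p = 2.3e-10), and Tagln and Cnn1 differed by -2.39 and -3.23. The 3 higher in brown fat were the pericyte genes Kcnj8 (1.83) and Rgs5 (0.93) and the muscle filament gene Des (0.91). The Des call was lost at a common total (0.37, adjusted p = 0.14) and without mouse 3 or 4. Among the other tissues, Des had its highest mean in muscle (1213). The part of skeletal muscle RNA in the Des difference was not tested.

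Of 8 nerve and Schwann cell genes, 5 were higher in white fat and 1 in brown. These shares were 62.5% and 12.5%, against 12.7% and 12.6% of all tested genes. The Schwann cell factor Sox10 had 26.2, 26.1, 22.8 and 31.5 in white and 3.604, 3.52, 3.68 and 5.61 in brown fat (log2 difference -2.45 ± 0.35, adjusted p = 4.7e-05). S100b, known from Schwann cells and also reported from brown adipocytes, had 72.1, 89.2, 75.997 and 99.6 in brown and 19.7, 14.8, 17.1 and 11.7 in white fat (log2 difference 2.35 ± 0.23, adjusted p = 5.5e-07), opposite to the other called members.

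**Figure D4:**
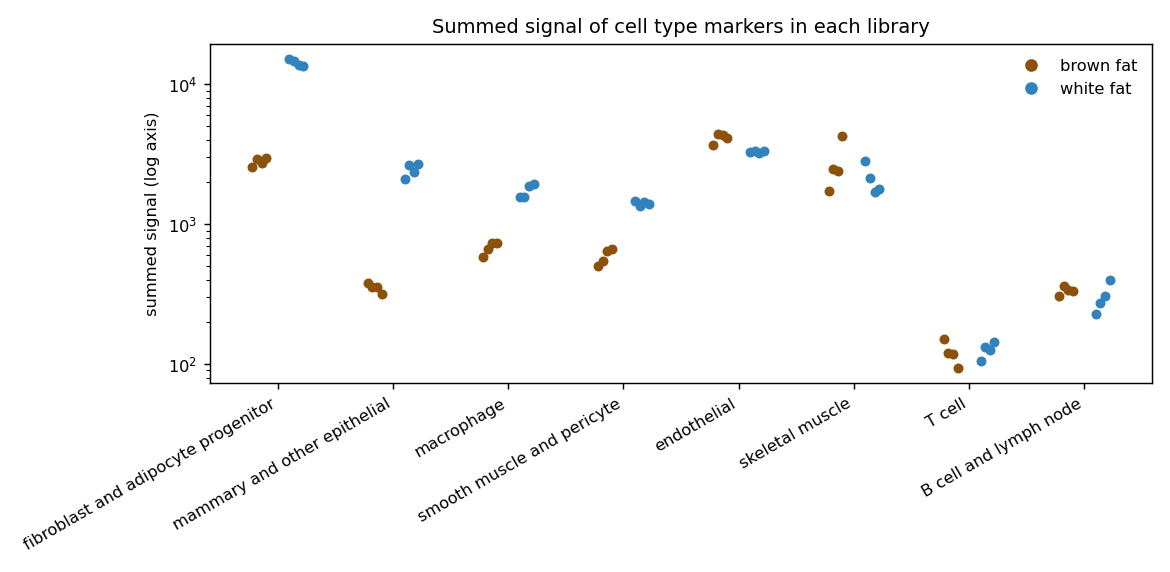
Summed signal of cell type markers in each of the 4 brown and 4 white libraries, on a log axis. Fibroblast, mammary and other epithelial, macrophage and smooth muscle sums are higher in white fat without overlap, endothelial sums higher in brown fat as deposited but higher in white fat at a common total, and muscle, T cell and B cell sums overlap.

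Areg, on the epithelial list, had the largest difference toward white fat among all tested genes. Of 18 mammary and other epithelial genes, 16 were higher in white fat and none in brown (median -2.14), and their summed signal was 2092 to 2701 in white against 316 to 378 in brown fat. The growth factor gene Areg had 164, 346, 178 and 389.6 in white and 0, 2.35, 2.45 and 1.403 in brown fat (log2 difference -6.78 ± 0.30, adjusted p = 6.4e-11). Kappa-casein, Csn3, a milk protein, had 167, 175, 116 and 254 in white and 0, 1.17, 1.23 and 2.81 in brown fat (log2 difference -6.38 ± 0.32, adjusted p = 2.6e-10). The other 13 tissues had means of at most 13.2 for Areg and 6.42 for Csn3, the latter in inguinal lymph node.

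Other genes, several of them known from mammary gland, were also higher in white than in brown fat. The prolactin receptor Prlr had 143, 168, 212 and 205 in white and 0, 8.22, 7.35 and 4.21 in brown fat (log2 difference -5.34 ± 0.36, adjusted p = 7.6e-09), the keratin Krt18 290.2, 401, 340.1 and 315 in white and 14.4, 10.6, 13.5 and 11.2 in brown fat (log2 difference -4.65 ± 0.18, adjusted p = 2.6e-11), and the water channel Aqp5 differed by -5.26. The oxytocin receptor, Oxtr, differed by -4.91. Among the tissues of PBS mice, Krt18 and Oxtr had their highest means in white fat. Prlr was higher in liver (247) and kidney (212) than in white fat (182). Aqp5 was higher in lung (164) than in white fat (116). The iodide transporter Slc5a5 had 176 counts in white fat and 1 in brown (ratio 124, interval 22 to 4940). Upk3a, a uroplakin, and Btn1a1, a milk fat globule protein, had 0 counts in all brown libraries and were at least 45.5-fold and 17.2-fold higher in white fat, against a floor of 3 counts over the group. Beta-casein, Csn2, had 7 counts in white and 2 in brown fat. The part of epithelium within the sample in other white fat differences was not tested. Mup11, a major urinary protein gene best known from liver, had 83.6, 29.6, 41.1 and 86.3 in white and 0, 1.17, 2.45 and 2.81 in brown fat, and its value is uncertain because the family holds near-identical copies.

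Skeletal muscle genes overlapped between the fats. Only 1 of 20 was called, higher in brown fat, a share of 5% against 12.6% of all tested genes. The median of these genes, 0.30, became -0.25 at a common total. Their summed signal was 1726 to 4258 in brown and 1690 to 2838 in white fat, against a median of 209823 in muscle.

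Set among the 15 tissues of the PBS mice, the 2 sides differed in where their genes peaked. Of genes higher in brown fat, 43.8% had their highest mean in brown fat, 15.8% in heart and 10.8% in muscle, against 7.15%, 5.27% and 7.2% of all tested genes. Of genes higher in white fat, 10.3% were highest in white fat and 11.8% in skin, against 1.91% and 5.77% of all tested genes. For respiratory chain and ATP synthase genes the highest mean was in heart for 60.5% and in brown fat for 38.3%, whereas 15 of 17 tricarboxylic acid cycle genes and 19 of 25 fatty acid oxidation genes peaked in brown fat. Cox7a1 was higher in heart (2978) than in brown fat. Membership on each side used the values of that fat, so the share that peaked in that fat is partly set by that choice.

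**Figure D5:**
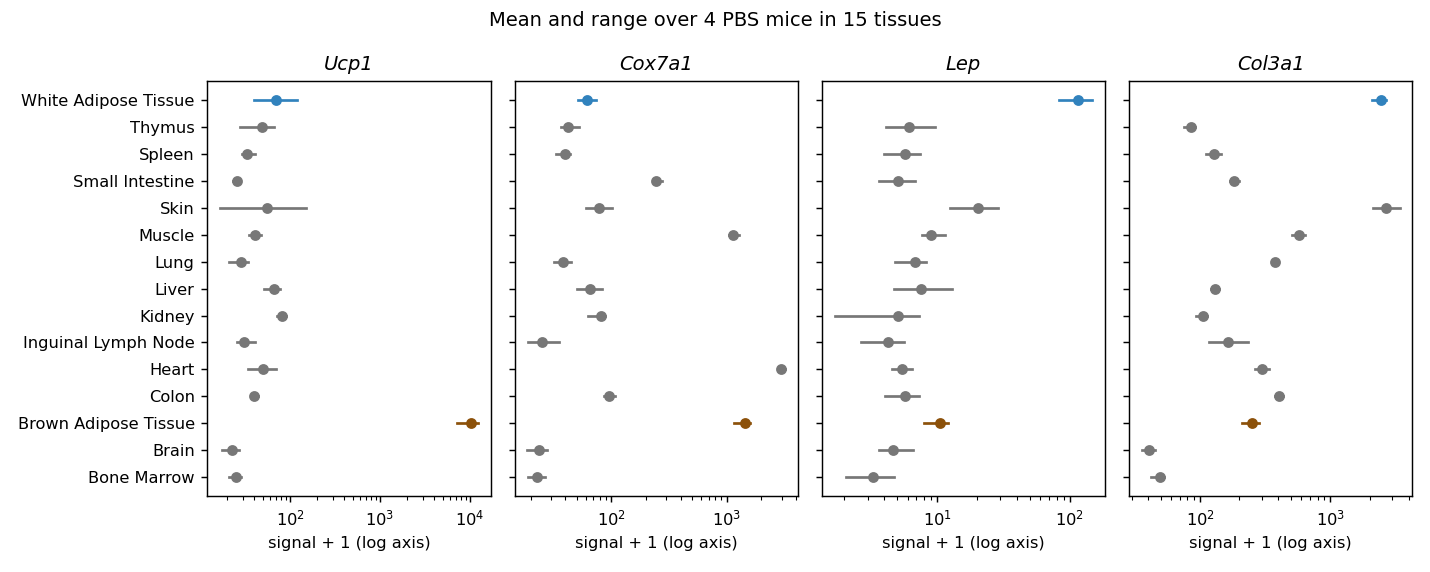
Mean (point) and range (line) over the 4 PBS mice of Ucp1, Cox7a1, Lep and Col3a1 in 15 tissues, on log axes of signal + 1. Ucp1 stands out in brown fat, Cox7a1 is highest in heart, Lep stands out in white fat, and Col3a1 is similar in white fat and skin.

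The same comparison in animals that share no library with these gave many of the same calls. In wild-type mice given LPS, 11.5% of 13308 tested genes were higher in brown and 11% higher in white fat. Of the PBS calls also tested there, 1025 of 1661 brown genes (61.7%) and 806 of 1671 white genes (48.2%) were called the same way, and 9 and 22 the opposite way. These shared genes were 67% and 55% of the calls made in the LPS mice. In TNF-deficient mice given LPS, 1161 of 1662 brown genes (69.9%) and 762 of 1669 white genes (45.7%) were called the same way, and 6 and 8 the opposite way, where 12% and 9.68% of 13311 genes were called in all. These were 72.9% and 59.2% of the calls in those mice. Summed skeletal muscle markers in brown fat were 2876 to 12672 in wild-type and 1678 to 7629 in TNF-deficient LPS mice, against 1726 to 4258 in PBS mice. In white fat of TNF-deficient mice, the T cell sum was 124 to 765 (median 163). The B cell and lymph node sum there was 468 to 1630 (median 527). The part of such other tissue in these counts of calls was not tested. Treatment differs between these sets of mice as well as the animals, and for the TNF-deficient mice the genotype differs too.

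Core genes recurred. Ucp1 differed by 6.24 in wild-type and 5.42 in TNF-deficient mice given LPS, and Csn3 by -5.67 and -5.10. Lep differed by -4.19 and -3.03. Dio2 (4.198 in PBS mice) differed by 0.92 in wild-type LPS mice, which was not called (adjusted p = 0.058), and by 2.53 in TNF-deficient mice. Adipoq was lower in brown fat of wild-type LPS mice (-0.38) and higher in brown fat of TNF-deficient LPS mice (0.93). Whether these differences between sets of mice are larger than the spread between mice was not tested.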

How the data were processed

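Polyadenylated RNA of brown and white fat from 4 PBS mice was measured by 3′ tag sequencing with a 10 bp molecular identifier; the sources used here do not say whether repeated identifiers were collapsed, so a count may be a molecule or a read. The deposited values are a signal, gene counts divided by the authors' effective library size, in a table named for CPM. Reads were handled with FastQC, MultiQC and edgeR on mm10, per the submitters' processing notes; no aligner is named in the sources used here. Whole counts were recovered from the steps of the deposited signal (100% of values whole within 0.1 counts) and used for edgeR and DESeq2.

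The 13217 of 13820 genes that reached a signal of 1 in 4 or more of these 8 libraries entered a limma 3.58.1 trend fit (R 4.3.3) of log2(signal + 1), in which the mouse was a block (3 residual degrees of freedom) and Benjamini-Hochberg adjustment at 0.05. Both fats of a number come from 1 mouse per the labels; the correlation of their deviations was -0.0056 to 0.022. Replicates differed by more than counting error (chi-squared per degree of freedom 1.31 to 4.32). Alternatives were edgeR 4.0.16, DESeq2 1.42.0, other scalings, filters and pseudocounts, no block, all 60 PBS libraries and leaving out each mouse. The fits were tested on simulated data.

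Named genes were the 15 largest eligible differences per direction, up to 5 per list and up to 3 against it, a set of known fat genes and the Hox genes, the most variable genes per tissue, and those most like Ucp1 and Lep. Eligible genes were called, had a mean of at least 10 in the higher tissue and no overlap between tissues, and were not predicted, clone, ribosomal, mitochondrial or antigen receptor genes. Genes outside this rule, chosen after their values were seen, were Ckmt2, Epsti1, Cox4i2, Cox6a2, Atp5g2, Atp5g3, mt-Co1, Pcx, Cs, Acly, Scd1, Srebf1, Lipe, Ckb, Bcat2, Cfd, Rbp4, Irx5, Cd163, Csn2, Btn1a1, Tbx5, Slc27a1, Car3 and the subunits shown by sequence. Some genes that the rule names are not reported here. Members and lists were chosen with earlier results of these data known. Positions are from GENCODE M21 and promoters from RefSeq.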

Additional observations from a re-analysis of the deposited data

Results flagged for a closer look

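In 10 of 265 groups of 4 libraries (3.77%), 1 library lay apart from the other 3 by Dixon's 95% limit, where chance gives about 1 in 20. In brown fat, mouse 1, the shallowest library, was low for mt-Co1 (11133, others from 14504), Suclg1 (1366, others from 1685), Sdhd (1013, others from 1148), Adipoq (753, others from 1031) and the summed nerve and Schwann cell markers (292, others from 354), and high for Cpt1a (43.2, others up to 30.5). Brown mouse 3 was high for Fads1 (44.1, others up to 25.8). In white fat, mouse 1 was high for Hoxc9 (18.03, others up to 10.3), mouse 2 for Bckdha (18.3, others up to 10.3), and mouse 4 was low for Acadvl (17.5, others from 29.5).

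Scd1 was higher in brown fat in each PBS mouse (0.82) and lower in brown fat in each TNF-deficient mouse given LPS (-0.43). The difference between these sets of mice was not tested.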

How the results depend on the processing

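Of 136 named genes called, 117 kept direction and call under each of the 13 alternatives that tested them. With each library scaled to a common total, 892 genes were higher in brown and 5276 in white fat, and the summed markers became 273 in brown and 2914 in white fat for mammary and other epithelium, 537 and 1996 for macrophages, and 2246 and 16511 for fibroblasts; the share of brown-side genes highest in brown fat became 34.4%. Ckmt2 (-0.04), Cox6a2 (-0.01), Pcx (-0.33), Atp2a2 (-0.04) and Bcat2 (-0.29) reversed there. The white count was 2936 with all 60 PBS libraries and the replicate block, and 952 with DESeq2. Without the replicate block, pairing by mouse, the counts were 1680 and 1659. Leaving out 1 mouse gave 1236 to 2050 genes higher in brown and 1101 to 1898 higher in white fat, and moved genes without a call across 0: Epsti1 ran from -0.62 to 0.07 (above 0 without mouse 3), Cox4i2 from -0.32 to 1.1 (below 0 without mouse 3), Atp5g3 from -0.10 to 0.07 (above 0 without mouse 1 or 2) and Srebf1 from -0.42 to 0.13 (above 0 without mouse 1). The cause of these changes was not tested. At this depth a signal under about 10 rests on few counts, so smaller differences of low genes could be missed.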
